A study of Homo sapiens with 120 samples.

Results

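HepG2 cells, a human liver tumour line, were exposed for 72 h to a titanium dioxide powder sold by Acros, coded I in the labels, at 3 µg/mL. Its 5 flasks were set against 8 flasks of untreated HepG2 cells. These 13 arrays are 13 of the 120 arrays in the series, and they were chosen by their titles alone. Each flask gave total RNA, which was read on 1 Illumina HT-12 v4 bead array. Further arrays used here are the same powder at 0.3 µg/mL (4 flasks) and 30 µg/mL (5 flasks), Degussa titanium dioxide, coded A, at 3 µg/mL (5 flasks), and Mknano titanium dioxide, coded H, at 3 µg/mL (5 flasks). All cells are of 1 cell line, carry no engineered allele and had grown for 48 h before exposure. Values below are log2 of the deposited probe intensity, called levels, and changes are differences of mean levels ± SE. A gene passed where the limma adjusted p was under 0.05. The number of arrays limits the precision of every value.

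Titanium dioxide is a poorly soluble white pigment. Cells take up such particles mainly by endocytosis, and the particles then collect in vesicles of the lysosomal system. HepG2 cells keep many hepatocyte traits, among them the secretion of albumin, apolipoproteins and complement proteins, and they divide in culture. Oxide particles are studied in such cells for oxidative stress, metal responses, protein folding stress and arrest of the cell cycle.

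The cells carried the marker pattern of a liver line. Of 13 hepatocyte markers 11 were measured, and their summed level was 15.97 to 16.36 in I at 3 µg/mL and 16.25 to 16.38 in control arrays. Among them, by the brightest probe of each gene, KRT18 alone passed the test. Albumin (ALB) changed by -0.04 ± 0.06 and reached 14.137 in both groups. This is near the top of the range of values that all arrays share, which limits the change this probe can show. A second, dimmer ALB probe changed by -0.25 and passed (adjusted p = 0.0437), so the ALB probes differ. PTPRC, a marker of leukocytes, and CDH5, a marker of endothelium, lay near the array median of 6.62 in both groups. CD14, also of the leukocyte list, lay higher, at 7.08 to 7.53 in I at 3 µg/mL and 6.90 to 7.42 in control arrays. It did not pass (adjusted p = 0.994). The bile duct markers KRT19, SOX9 and EPCAM were all above 9 in both groups, and KRT7 was near the array median. Of the 6 fibroblast markers, DCN passed, at levels of 6.67 to 6.93 in I at 3 µg/mL and 6.53 to 6.74 in control arrays. PDGFRB, of the same list, lay at 7.01 to 7.22 and 6.92 to 7.19 in these groups and did not pass. The part that any of these lists has in the results was not tested.

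An array of each group stood apart from its own group. Replicate 4 of I at 3 µg/mL belongs to 9 arrays of the series that lie apart on the first principal component, which holds 38.1% of the variance. It scored -48.99 there, while the other 4 arrays scored between -6.86 and 4.36. The 9 arrays hold consecutive places, 59 to 67, in the order of deposit and come from several materials and doses. None of the 9 is a control, and 1 is replicate 3 of I at 0.3 µg/mL (-44.54). What sets them apart was not tested. Control replicate 8 differs in another way: its nearest array among the 13 was replicate 1 of I at 3 µg/mL, at a root mean square log2 difference of 0.100, the smallest of all pairs. The largest, 0.384, was between replicate 4 and control replicate 3. Control replicate 8 thus lay closer to an array of I than to any other control, and the files do not settle whether its label is right. It stays in the comparison as labelled, so each change against control and each statement on overlap carries that doubt. Replicate 1 of H at 3 µg/mL also lay apart from its group, toward the controls: over the genes that rose in I its median distance from the control mean was 0.03, against 0.20 to 0.37 in the other 4 arrays of H. Results are given with and without replicate 4, and without control replicate 8 where that matters.

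Exposure to I at 3 µg/mL changed 1547 of 20046 genes, or 7.72% of those tested, with 956 higher (4.77%) and 591 lower (2.95%). Without replicate 4, 809 genes passed (4.04%), 471 of them higher (2.35%) and 338 lower (1.69%). Of the 1547 genes, 726 passed both times, and all 1547 kept their direction without replicate 4. The median rise among the 956 genes was 0.36 with all 5 arrays and 0.31 without replicate 4, and the median fall among the 591 was -0.34 and -0.31. Changes were mostly small: 10 genes moved by more than 2-fold, 6 up and 4 down, and 0 genes passed limma's treat, which asks for a change beyond 1.5-fold.

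The count without replicate 4 also depends on the other 8 arrays that lie apart, since all groups share 1 estimate of the spread. With all 9 left out, I at 3 µg/mL keeps the same 4 arrays, and 1964 genes passed (9.8%), 1102 higher (5.5%) and 862 lower (4.3%), 1321 of them among the 1547. A fit of the 2 groups alone, with replicate 4, called 511 (372 higher and 139 lower). Without control replicate 8, 1797 passed (8.96%), 1098 higher (5.48%) and 699 lower (3.49%). Without both that control and replicate 4, 1159 passed (5.78%), 653 higher (3.26%) and 506 lower (2.52%).

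Replicate 4 and control replicate 8 lay at an end of their group in many of the called genes, and other arrays did so less often. Replicate 4 was the highest of the 5 arrays in 61.8% of the 956 genes that rose and in 31.4% of all genes. It was the lowest in 42.6% of the 591 genes that fell and in 26.6% of all genes. Replicate 5 was the lowest in 211 of those 591 genes (35.7%) and in 4209 of all 20046. Control replicate 8 was the highest control in 55.9% of the genes that rose, against 16.2% of all genes, and the lowest control in 46.5% of those that fell, against 14.5% of all genes. Control replicate 2 was the lowest in 32.7% of those that fell and in 17.8% of all genes. Over the risen genes the median distance of control replicate 8 from the control mean was 0.20, where the 5 arrays of I at 3 µg/mL had 0.27 to 0.55. The risen and fallen genes were called with these same arrays, replicate 4 included. That choice favours large distances of the 5 arrays and an extreme place for replicate 4. In 208 genes (1.04%) all 5 arrays of I at 3 µg/mL lay above all 8 controls, and in 86 (0.429%) below them. Without replicate 4 these counts were 277 (1.38%) and 155 (0.773%).

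**Figure D1:**
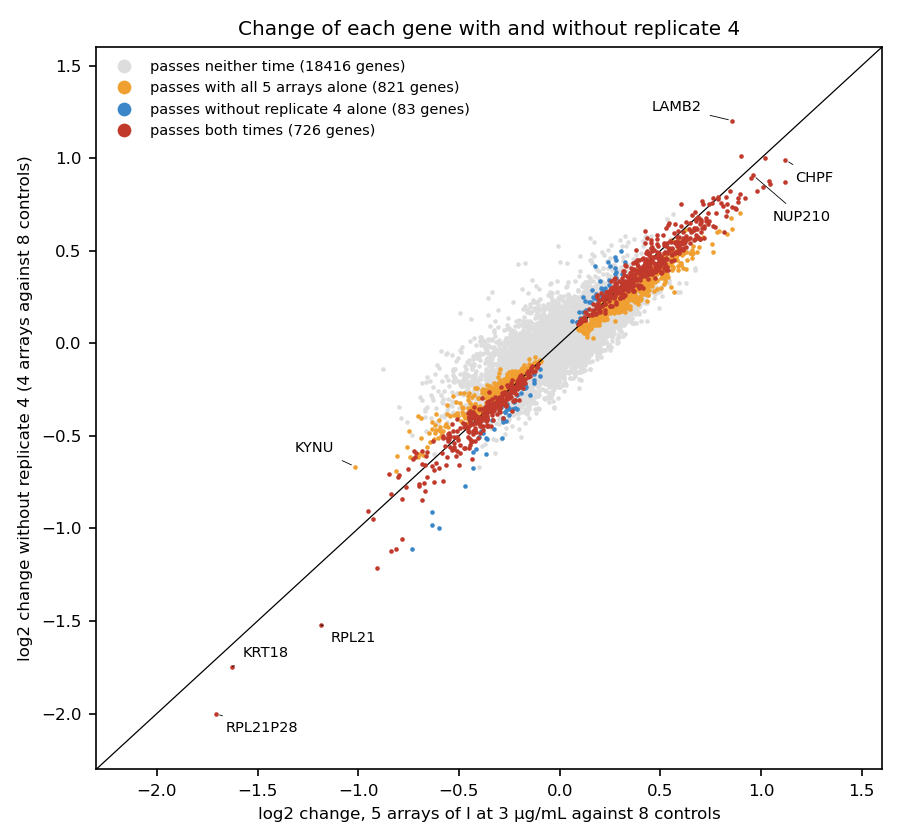
Change of each of 20046 genes between I at 3 µg/mL and control in log2 units, with all 5 treated arrays (x axis) and without replicate 4 (y axis). The 726 genes that passed both times and the 821 that passed with all 5 arrays alone lie on both sides of the line of equal change, and 83 genes passed without replicate 4 alone. LAMB2 lies above the line, and RPL21 and RPL21P28 lie below it, where the fall is larger without replicate 4.

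The 12 largest rises ran from 1.86-fold to 2.17-fold and hold enzymes of matrix synthesis, membrane traffic, protein turnover and growth signalling. CHPF, which lengthens chondroitin sulfate chains, had levels of 9.25, 9.46, 9.29, 10.02 and 9.52 in replicates 1 to 5 of I at 3 µg/mL, against controls between 7.96 and 9.32 (median 8.26). The 5 arrays lay above 7 controls, while control replicate 8 lay among them. CHPF was thus 1.12 ± 0.21 higher (2.17-fold, adjusted p = 0.00013), and 0.99 higher without replicate 4 (adjusted p = 0.00263). ATG9A, a lipid scramblase that serves the growing autophagosome, had 9.55, 9.54, 9.65, 10.87 and 9.83 in I at 3 µg/mL, against controls between 8.46 and 9.39 (median 8.66). The groups did not overlap, and replicate 4 was the highest array by a wide margin. Its rise was 1.12 ± 0.22 (adjusted p = 0.000414), and 0.87 without replicate 4 (adjusted p = 0.014). Another ATG9A probe rose by 0.84 (adjusted p = 0.00365), and a further one, at 0.05, did not pass (adjusted p = 0.393).

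NUP210, a membrane protein of the nuclear pore, had the smallest adjusted p among these 12. It measured 8.70, 8.56, 8.75, 8.91 and 8.64 in I at 3 µg/mL, against controls between 7.48 and 8.46 (median 7.70). The groups did not overlap, and all 5 treated arrays lay close together. The rise of 0.96 ± 0.13 (1.94-fold, adjusted p = 5.79e-07) was 0.91 without replicate 4 (adjusted p = 1.45e-05).

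A further group of the 12 acts in growth factor signalling. SRC, a tyrosine kinase of focal adhesions, had 10.56, 10.83, 10.46, 10.89 and 10.56 in I at 3 µg/mL, against controls between 9.38 and 10.55 (median 9.62). A single control, replicate 8, reached the treated arrays. SRC rose by 0.95 ± 0.14 (adjusted p = 5.53e-06), and a second, dimmer SRC probe fell by 0.19 (adjusted p = 0.00315), so the probes of this gene disagree. EPHB4, a receptor for ephrin-B ligands, had 9.54, 9.50, 9.59, 9.76 and 10.02 in I at 3 µg/mL, against controls between 8.32 and 9.46 (median 8.54), with no overlap. It rose by 1.02 ± 0.17 (adjusted p = 4.94e-05), and by 1.00 without replicate 4. MAP2K2, the kinase MEK2 that activates ERK, rose by 0.90 ± 0.18, and replicate 4 was here its lowest treated array, at 8.94. DUSP9, a phosphatase that turns ERK off, rose by 1.01 ± 0.19 with no overlap of the groups. IGF2, a growth factor of the fetal liver, measured 10.05, 10.02, 10.13, 10.55 and 10.24 in I at 3 µg/mL, against controls between 8.65 and 10.10 (median 9.26). Its rise of 0.89 ± 0.24 was the least firm of the 12, with an adjusted p of 0.00846, and 0.0487 without replicate 4. Further IGF2 probes changed by 0.39 (adjusted p = 0.356) and -0.02 (adjusted p = 0.797), and neither passed.

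The other 4 rises were UBR4, a ubiquitin ligase of the N-degron pathway (1.04 ± 0.20), RNA18SN5, a copy of 18S ribosomal RNA (1.04 ± 0.25), the RNA-binding protein PRRC2A (0.98 ± 0.21) and ILRUN, a regulator of innate immune signalling (0.92 ± 0.17). The 18S signal cannot be assigned to 1 of its near-identical copies. A second ILRUN probe fell by 0.16 (adjusted p = 0.00575). All 12 rises passed without replicate 4, and replicate 4 was the highest treated array in 10 of them. In all 12 the highest control was replicate 8. In 4 the groups did not overlap, and without control replicate 8 this held for all 12. The 12 were picked for large changes with all 5 arrays on 1 side, which favours such separation. Over all genes the share was 1.04% with all 8 controls, and it was not counted without control replicate 8.

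**Figure D2:**
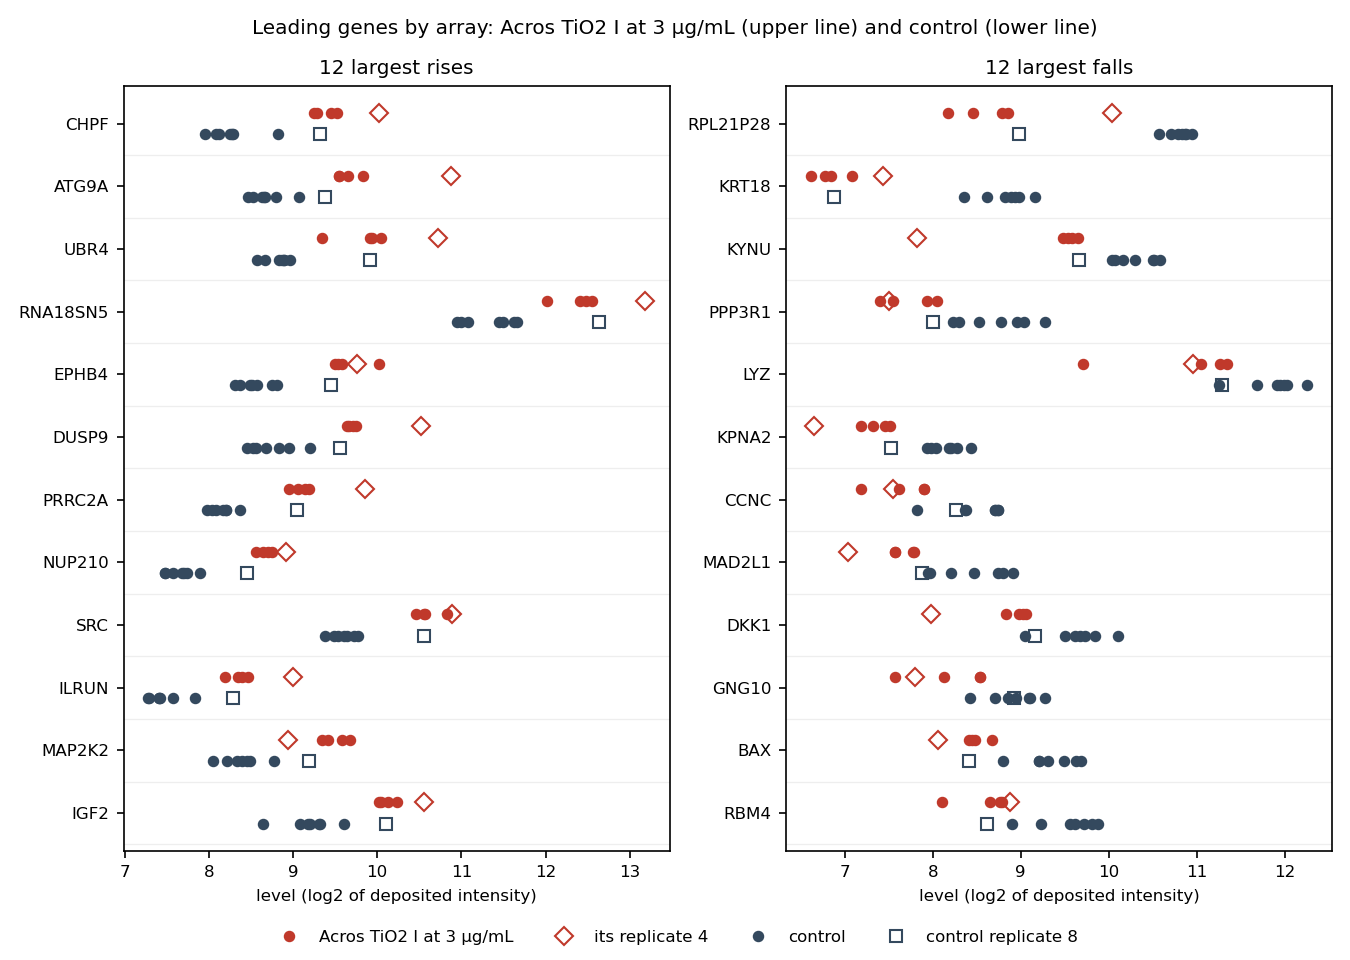
Levels (log2 of intensity, x axis) of the 12 largest rises and 12 largest falls, with the 5 arrays of I at 3 µg/mL (red) over the 8 controls (blue) for each gene. The open diamond is replicate 4 and the open square control replicate 8, which lies next to the treated arrays in most genes, as for KRT18 at 6.88.

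Among the 12 largest falls stood a keratin, a spindle checkpoint gene, a nuclear import factor and an apoptosis gene. KRT18, a keratin of simple epithelia, had 6.85, 7.09, 6.78, 7.44 and 6.62 in I at 3 µg/mL, against controls between 6.88 and 9.16 (median 8.86). Control replicate 8, at 6.88, lay within the treated range, and the other 7 controls lay well above it. KRT18 fell by 1.62 ± 0.25 on the log2 scale (3.08-fold, adjusted p = 6.26e-06), to a level near the array median. The fall was -1.75 without replicate 4 (adjusted p = 1.45e-05) and -1.87 without control replicate 8. A second KRT18 probe changed by -0.17 and did not pass (adjusted p = 0.115). The partner keratin KRT8 did not pass, at 0.34 above control (adjusted p = 0.186).

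RPL21P28, a pseudogene of the ribosomal protein gene RPL21, had 8.86, 8.45, 8.79, 10.04 and 8.17 in I at 3 µg/mL, against controls between 8.98 and 10.95 (median 10.81). Replicate 4 lay between the other treated arrays and 7 of the controls, and control replicate 8 lay below replicate 4. Its fall was -1.71 ± 0.32 (adjusted p = 0.000145), and -2.0014 without replicate 4 (adjusted p = 5.75e-05). A second RPL21P28 probe changed by -0.30 and did not pass (adjusted p = 0.753). RPL21 itself had 10.93, 10.68, 10.91, 12.35 and 10.17 in I at 3 µg/mL, against controls between 11.08 and 12.55 (median 12.36). It fell by 1.19 ± 0.28 on the log2 scale, and by 1.52 without replicate 4. Gene and pseudogene have near-identical sequence, so their signals are not independent.

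BAX, which permeabilises the mitochondrial membrane in apoptosis, measured 8.41, 8.48, 8.45, 8.06 and 8.68 in I at 3 µg/mL, against controls between 8.41 and 9.69 (median 9.26). Control replicate 8 was the single control within the treated range. BAX fell by 0.80 ± 0.15 on the log2 scale (adjusted p = 0.000121), and another BAX probe rose by 0.31 (adjusted p = 0.00949). PPP3R1, the regulatory subunit of the phosphatase calcineurin, had 8.04, 7.93, 7.54, 7.50 and 7.41 in I at 3 µg/mL, against controls between 8.00 and 9.28 (median 8.65). The groups met at control replicate 8, and the change was -0.95 ± 0.15 (adjusted p = 1.51e-05). KPNA2, an importin that carries proteins into the nucleus, had 7.46, 7.33, 7.51, 6.66 and 7.18 in I at 3 µg/mL, against controls between 7.53 and 8.44 (median 8.11). The groups did not overlap, and KPNA2 changed by -0.85 ± 0.17 (adjusted p = 0.000596). A second KPNA2 probe changed by -0.01 and did not pass (adjusted p = 0.972).

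Of the other falls, KYNU, an enzyme of tryptophan breakdown, MAD2L1, of the spindle checkpoint, and DKK1, a secreted Wnt antagonist, did not pass without replicate 4. Their adjusted p was then 0.234, 0.0568 and 0.118, in that order. With all 5 arrays, a second KYNU probe changed by -0.64 and passed (adjusted p = 8.84e-05). Second probes of MAD2L1 (0.07, adjusted p = 0.516) and DKK1 (-0.04, adjusted p = 0.684) did not pass. KYNU had 9.65, 9.53, 9.48, 7.82 and 9.58 in I at 3 µg/mL, against controls between 9.66 and 10.58 (median 10.23), so all 5 treated arrays were below all controls, replicate 4 by far the lowest. Its change was -1.01 ± 0.29, and -0.67 without replicate 4. LYZ (lysozyme), CCNC (cyclin C), GNG10 (a G protein gamma subunit) and RBM4 (a splicing factor) fell by 0.93, 0.84, 0.80 and 0.78 on the log2 scale, and all 4 passed without replicate 4. A second LYZ probe went the other way, by 0.44 ± 0.22, and did not pass (adjusted p = 0.253). Further CCNC probes changed by -0.60 (adjusted p = 0.0278) and -0.25 (adjusted p = 0.543). Control replicate 8 was the lowest control in 8 of the 12 falls. In 3 of the 12 the groups did not overlap, and without that control this held for 8. The choice of these genes favours separation here too. Over all genes the share was 0.429% with all 8 controls, and it was not counted without control replicate 8.

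Promoters of 4 of these genes are shown because their transcripts moved in opposite directions. They are the 2 rises and 2 falls of smallest p with 1 entry each in the RefSeq promoter table (GRCh38.p14), given as the 250 bases before the annotated start, 5′ to 3′. Capitals mark the GC box GGGCGG on either strand, so CCGCCC is marked too. Of the 24 leading genes, 18 have an entry, and KRT18 and SRC have none.
NUP210, chr3:13420323-13420572, minus strand: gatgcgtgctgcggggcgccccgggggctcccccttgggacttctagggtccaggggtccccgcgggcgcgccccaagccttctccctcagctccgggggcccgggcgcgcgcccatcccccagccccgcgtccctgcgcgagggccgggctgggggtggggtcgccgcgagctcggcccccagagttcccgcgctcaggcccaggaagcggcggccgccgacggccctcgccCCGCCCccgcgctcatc
EPHB4, chr7:100827524-100827773, minus strand: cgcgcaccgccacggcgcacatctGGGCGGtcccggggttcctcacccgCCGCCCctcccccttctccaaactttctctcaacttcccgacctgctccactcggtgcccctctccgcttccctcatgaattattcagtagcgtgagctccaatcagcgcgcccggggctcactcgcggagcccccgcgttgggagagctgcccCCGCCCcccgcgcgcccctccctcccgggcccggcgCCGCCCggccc
PPP3R1, chr2:68252533-68252782, minus strand: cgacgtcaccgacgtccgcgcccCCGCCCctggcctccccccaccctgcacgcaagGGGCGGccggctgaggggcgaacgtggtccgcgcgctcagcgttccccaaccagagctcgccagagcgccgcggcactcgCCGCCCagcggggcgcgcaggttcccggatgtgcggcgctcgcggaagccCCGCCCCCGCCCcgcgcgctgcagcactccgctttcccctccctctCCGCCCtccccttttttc
BAX, chr19:48954625-48954874, plus strand: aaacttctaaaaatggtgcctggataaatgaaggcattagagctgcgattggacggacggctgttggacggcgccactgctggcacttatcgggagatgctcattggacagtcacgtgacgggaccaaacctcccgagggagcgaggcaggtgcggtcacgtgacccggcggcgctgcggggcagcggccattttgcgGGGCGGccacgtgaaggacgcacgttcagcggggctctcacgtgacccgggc
The window of EPHB4 holds 4 GC boxes and that of NUP210 holds 1, while the PPP3R1 window holds 6 and the BAX window 1. Of all 35116 promoters in the table, 42.6% hold the box in the same 250 bases. The GC content was 80.8% for NUP210, 72.8% for EPHB4, 76.8% for PPP3R1 and 62.8% for BAX, so the risen and fallen genes overlap in both measures. Over the table's full windows, which reach past the start, the median GC content was 68.2% for 768 risen genes, 64.0% for 463 fallen genes and 65.3% for 8175 genes at or above the median level. The GC box was in 73.8% of the windows of risen genes, 66.3% of those of fallen genes and 70.4% of those of the genes at or above the median level. No test was made of these differences.

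Some called genes rest on replicate 4, and in others it opposes the remaining 4 arrays. POLR2J3, a subunit gene of RNA polymerase II, had 8.33, 8.20, 8.31, 6.71 and 8.22 in I at 3 µg/mL, against controls between 8.32 and 8.99 (median 8.58). Replicate 4 alone was far below the controls, and the change of -0.70 ± 0.23 (adjusted p = 0.0457) was -0.39 without it (adjusted p = 0.476). ZHX2, a repressor of fetal liver genes, had 8.41, 8.58, 8.30, 9.92 and 8.55 in I at 3 µg/mL, against controls between 7.92 and 8.51 (median 8.15). Replicate 4 stood far above every other array, and the rise of 0.57 ± 0.14 was 0.27 without it (adjusted p = 0.241).

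LAMB2, a laminin chain of basement membranes, showed the opposite, with 9.32, 9.44, 9.38, 7.78 and 9.87 in I at 3 µg/mL, against controls between 7.90 and 8.88 (median 8.17). Replicate 4 was below all controls and the other 4 arrays above all of them. The rise of 0.86 ± 0.25 (adjusted p = 0.0162) became 1.20 without replicate 4 (adjusted p = 0.0013). PSMC4, an ATPase of the proteasome base, had 8.02, 8.19, 7.96, 9.37 and 7.17 in I at 3 µg/mL, against controls between 8.21 and 9.51 (median 9.26). Without replicate 4 the groups did not overlap, and its change of -0.91 ± 0.25 became -1.21.

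Gene lists were read next, by the number of measured members that passed, beside 4.77% higher and 2.95% lower over all genes, or 2.35% and 1.69% without replicate 4. The median change over all genes was 0.00, with 52.1% of genes above 0. The 36 lists hold 901 symbols, of which 834 were measured.

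**Figure D3:**
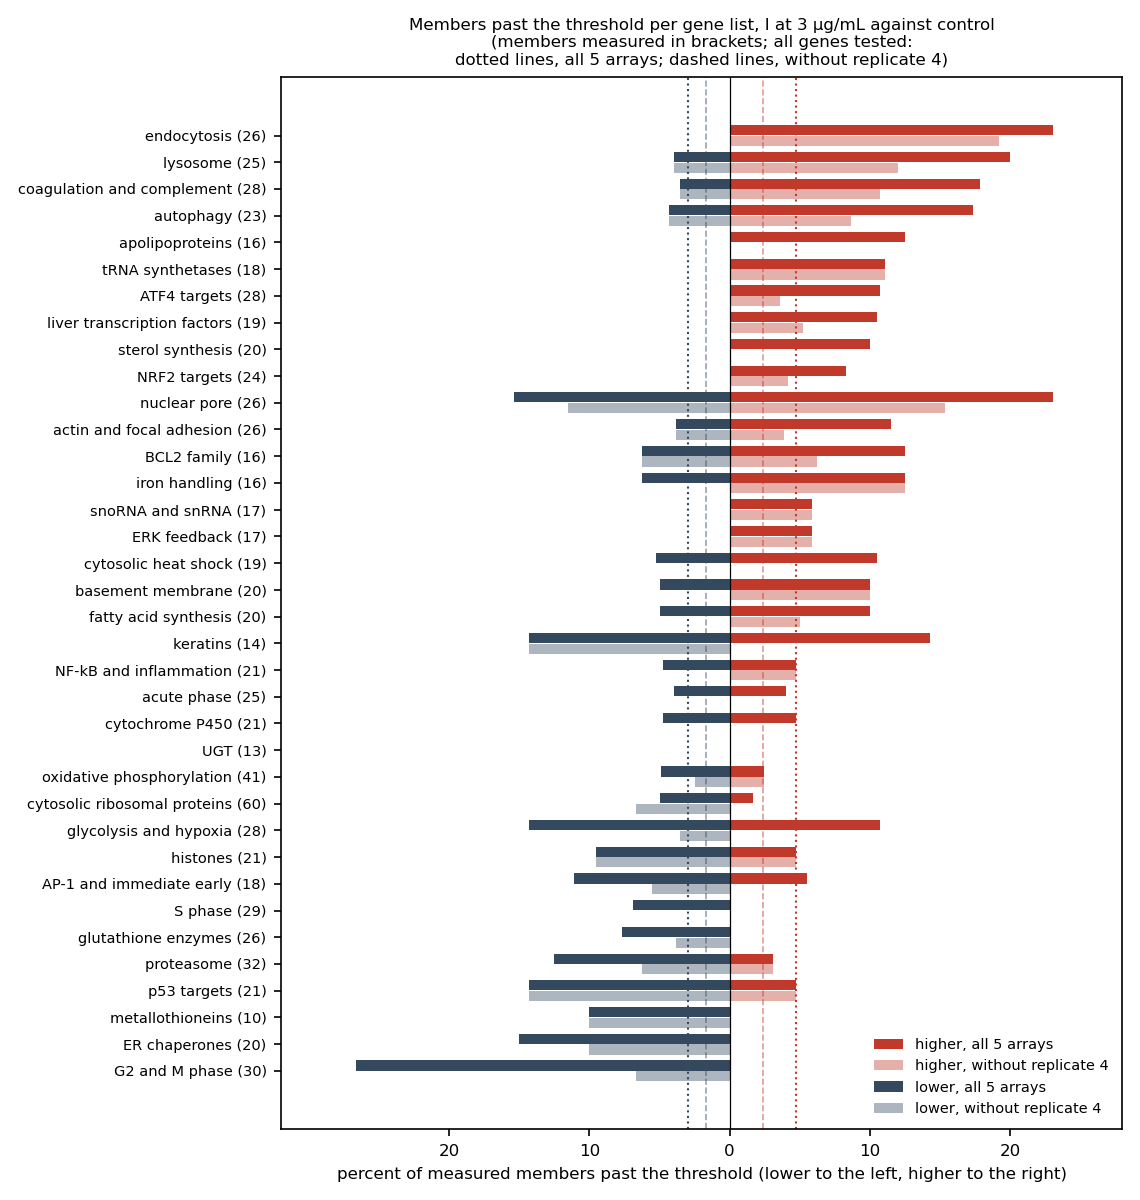
Percent of the measured members of each gene list that passed in I at 3 µg/mL against control, lower to the left and higher to the right, with all 5 arrays (dark) and without replicate 4 (pale). Dotted lines give the share over all genes, 4.77% higher and 2.95% lower, and dashed lines that without replicate 4, 2.35% and 1.69%; G2 and M phase genes reach farthest to the left with 8 of 30 lower, or 2 of 30 without replicate 4.

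Of 30 measured genes of G2 and mitosis, 8 fell and 0 rose, the median change was -0.32, and 3.3% of members were above 0. Without replicate 4 the median was -0.34 and 2 members passed. With all 9 arrays that lie apart left out, which keeps the same 4 treated arrays, 9 fell and 0 rose. HMMR, a spindle-associated protein, had 7.56, 7.45, 7.24, 7.01 and 7.52 in I at 3 µg/mL, against controls between 7.43 and 8.61 (median 8.03). The lower controls reached into the treated range, and HMMR fell by 0.59 ± 0.15 on the log2 scale (adjusted p = 0.00696). CCNB2, a mitotic cyclin, fell by 0.62 ± 0.17, and KIF11, a spindle motor, by 0.28 ± 0.08. Both, like HMMR and MAD2L1, missed the threshold without replicate 4, with adjusted p of 0.0568 to 0.123. MKI67, the proliferation marker Ki-67, measured near the array median and differed by -0.01 ± 0.05. Of 29 genes of DNA replication and S phase, 2 fell: RFC4, of the clamp loader (-0.30 ± 0.08), and RRM2, of ribonucleotide reductase (-0.29 ± 0.10). Neither passed without replicate 4. RRM2 averaged 6.67 in I at 3 µg/mL and 6.96 in control, near the array median of 6.62.

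Nuclear pore genes moved in both directions, with 6 of 26 higher and 4 lower, and 4 and 3 without replicate 4. Beside NUP210, the cytoplasmic-side nucleoporin NUP214 rose by 0.63 ± 0.09 (adjusted p = 5.2e-06). NUP214 had 8.53, 8.71, 8.44, 8.81 and 8.59 in I at 3 µg/mL, against controls between 7.80 and 8.40 (median 7.94). All treated arrays were above all controls. NUP50, which helps release imported cargo, fell by 0.42 ± 0.07 (adjusted p = 3e-05), and NUP35, of the inner ring, changed by -0.77 ± 0.14 (adjusted p = 0.000121). NUP35 had 7.88, 7.83, 7.57, 7.66 and 7.19 in I at 3 µg/mL, against controls between 7.99 and 8.64 (median 8.45), without overlap. These 4 genes passed without replicate 4 as well. Further NUP50 probes changed by -0.02 (adjusted p = 0.848) and -0.01 (adjusted p = 0.95), and neither passed. A second NUP35 probe changed by -0.31 and did not pass (adjusted p = 0.149).

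Of 26 genes of endocytosis, 6 rose and 0 fell, with a median change of 0.04, and 5 rose and 0 fell without replicate 4. With the 9 arrays that lie apart left out, 7 rose and 1 fell. AP2B1, a subunit of the clathrin adaptor AP-2, had 7.49, 7.66, 7.61, 7.99 and 7.11 in I at 3 µg/mL, against controls between 6.78 and 7.47 (median 6.92). Of its treated arrays 4 lay above all controls, and the rise was 0.59 ± 0.13 (adjusted p = 0.000846). LRP1, a large endocytic receptor of hepatocytes, rose by 0.54 ± 0.12, and the dynamin DNM2, which pinches off vesicles, by 0.36 ± 0.08. SCARB1, the receptor for high-density lipoprotein, had 10.04, 9.99, 9.95, 10.56 and 10.29 in I at 3 µg/mL, against controls between 9.34 and 9.88 (median 9.50). The groups did not overlap, and SCARB1 rose by 0.61 ± 0.15 (adjusted p = 0.0041).

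Of 25 lysosome genes, 5 rose and 1 fell, and 3 and 1 without replicate 4. GAA, which breaks down glycogen in lysosomes, had 8.20, 8.24, 8.30, 8.58 and 8.42 in I at 3 µg/mL, against controls between 7.56 and 8.10 (median 7.65), with no overlap. It rose by 0.60 ± 0.13 (adjusted p = 0.00173). The protease CTSD rose by 0.58 ± 0.15, again without overlap, and its adjusted p without replicate 4 was 0.0495. TFEB, the transcription factor of lysosome genes, rose by 0.20 ± 0.04 at a level near the array median, and the lysosomal galactosidase GLA fell by 0.33 ± 0.10 on the log2 scale. In autophagy 4 of 23 rose and 1 fell, and 2 and 1 without replicate 4. Next to ATG9A these were ATG16L1 (0.76 ± 0.21) and WIPI2 (0.30 ± 0.09), both of the membrane that becomes the autophagosome, and ATG13 of the kinase complex that starts it (0.19 ± 0.06). BECN1, of the lipid kinase complex, was the 1 that fell (-0.59). Without replicate 4 BECN1 did not pass, the protease ATG4B did (-0.98), and ATG13 rose by 0.26. ATG16L1 and WIPI2 then missed the threshold (adjusted p = 0.172 and 0.192). With the 9 arrays that lie apart left out, 4 of the 23 autophagy genes rose and 4 fell.

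Secreted liver proteins changed in part. Of 28 coagulation and complement genes, 5 rose and 1 fell, and 3 and 1 without replicate 4. C2, a protease of the classical complement pathway, had 10.48, 10.63, 10.38, 10.42 and 10.43 in I at 3 µg/mL, against controls between 9.28 and 10.28 (median 9.75). The groups did not overlap, and C2 rose by 0.74 ± 0.15 (adjusted p = 0.000309). CFB, the matching protease of the alternative pathway, had 12.50, 12.49, 12.27, 12.66 and 12.22 in I at 3 µg/mL, against controls between 11.64 and 12.46 (median 11.80). It rose by 0.58 ± 0.11, and control replicate 8 again lay within the treated range. Plasminogen (PLG) rose by 0.25 ± 0.06, and coagulation factor XI (F11) fell by 0.33 ± 0.07 on the log2 scale. F11 averaged 6.88 in I at 3 µg/mL and 7.21 in control, not far above the array median of 6.62.

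Among 16 apolipoproteins 2 rose, APOC1 by 0.53 ± 0.14 and APOE by 0.38 ± 0.11, and 0 passed without replicate 4. Of 25 acute phase genes, angiotensinogen (AGT) rose by 0.50 ± 0.14 and ceruloplasmin (CP) changed by -0.21 ± 0.07, and neither passed without replicate 4. CP averaged 6.75 in I at 3 µg/mL and 6.96 in control, near the array median of 6.62. Without the 9 arrays that lie apart, 2 apolipoproteins and 2 acute phase genes rose and 0 fell. Of 19 liver transcription factors, 2 rose: ESRRA by 0.47 ± 0.10 and CEBPA by 0.57 ± 0.17. The median over that list was 0.12, with 84.2% of members above 0, and 0.07 without replicate 4, when ESRRA alone passed.

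Among enzymes of drug metabolism, 1 of 21 genes in the cytochrome P450 list rose and 1 fell, and 0 passed without replicate 4. Without the 9 arrays that lie apart, 2 of them rose and 1 fell. POR, which feeds electrons to all microsomal P450 enzymes, rose by 0.78 ± 0.19 and CYP2J2 changed by -0.21 ± 0.06. POR had 10.41, 10.47, 10.52, 11.36 and 10.50 in I at 3 µg/mL, against controls between 9.45 and 10.32 (median 9.89). The groups did not overlap, and without replicate 4 the rise was 0.60 (adjusted p = 0.0568). None of 13 UGT genes passed, 0 of them higher and 0 lower with limma, and UGT2B11 had the smallest p at -0.47 ± 0.18 (adjusted p = 0.0893).

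In metabolism, 3 of 28 glycolysis and hypoxia genes rose and 4 fell, and 0 and 1 without replicate 4. Without the 9 arrays that lie apart these counts were 1 and 5. PGAM1, of lower glycolysis, had 8.59, 8.46, 8.52, 8.50 and 7.85 in I at 3 µg/mL, against controls between 8.67 and 9.32 (median 9.03). All treated arrays lay below all controls, and PGAM1 changed by -0.63 ± 0.16, the 1 member that passed without replicate 4. The hypoxia gene DDIT4 rose by 0.52 ± 0.15, while the glycolytic enzyme TPI1 and the peptide hormone ADM fell by 0.66 and 0.33 on the log2 scale. Of 20 sterol synthesis genes, DHCR7 (0.39 ± 0.11) and LSS (0.41 ± 0.13) rose, and neither passed without replicate 4. Without the 9 arrays that lie apart, 3 of the 20 rose and 0 fell. In fatty acid synthesis the carboxylase ACACA rose by 0.31 ± 0.09 and its regulator SREBF1 by 0.37 ± 0.10, and LPIN1 fell by 0.34 ± 0.11 on the log2 scale. Of 41 respiratory chain genes, SDHC rose by 0.43 ± 0.11, and UQCRB and ATP5F1C fell by 0.50 and 0.62 on the log2 scale. In iron handling 2 of 16 rose and 1, CP, fell. The transferrin receptor TFR2 rose by 0.60 ± 0.10 (adjusted p = 1.92e-05) and the iron importer SLC11A2 by 0.32 ± 0.09, both with and without replicate 4.

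The 10 measured genes of the metallothionein list, which bind or move zinc and copper, had 1 that passed, the zinc exporter SLC30A1, at -0.35 ± 0.09. MT1X changed by -0.29 ± 0.22 and MT2A by 0.03 ± 0.17. Of 24 targets of NRF2, the regulator of the antioxidant response, MAFG (0.40 ± 0.10) and SRXN1 (0.38 ± 0.11) rose, MAFG alone without replicate 4. HMOX1, a common marker of oxide exposure, had 7.62, 7.88, 7.84, 8.19 and 7.92 in I at 3 µg/mL, against controls between 7.72 and 8.06 (median 7.93). The groups overlapped throughout, with a difference of -0.01 ± 0.12. The list of glutathione enzymes, which also holds the mitochondrial peroxiredoxin PRDX3, had 2 of 26 measured members that fell. PRDX3 changed by -0.70 ± 0.17 and MGST2 by -0.25 ± 0.08.

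Of 28 ATF4 targets, which respond to amino acid and folding stress, 3 rose: SESN2 (0.52 ± 0.11), DDIT4 and the amino acid transporter chain SLC3A2 (0.35 ± 0.11). SESN2 alone passed without replicate 4, and another SLC3A2 probe fell by 0.72 (adjusted p = 0.0378). MARS1 (0.43 ± 0.09) and FARSA (0.46 ± 0.12) rose among 18 tRNA synthetases. Of 20 genes of the endoplasmic reticulum 3 fell, XBP1 by 0.36 ± 0.09, PDIA6 by 0.36 ± 0.12 and DNAJC3 by 0.21 ± 0.07 on the log2 scale, and DDIT3 did not pass at -0.08 ± 0.13. In the cytosolic heat shock list the chaperones STIP1 (0.85 ± 0.20) and HSP90AB1 (0.48 ± 0.12) rose and CHORDC1 changed by -0.39 ± 0.13. Of these 19 genes 0 passed without replicate 4, while 2 rose and 2 fell without the 9 arrays that lie apart. HSPA1A differed by -0.08 ± 0.20.

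Of 21 p53 targets, BAX, GADD45A (-0.52 ± 0.11) and TIGAR (-0.22 ± 0.07) fell and SESN2 rose. CDKN1A, the cell cycle inhibitor p21, had 11.44, 11.65, 11.28, 12.16 and 11.65 in I at 3 µg/mL, against controls between 11.09 and 11.9987 (median 11.50). The groups overlapped, and it differed by 0.13 ± 0.14. GDF15, another stress target, differed by 0.15 ± 0.13. In the BCL2 family the BH3-only gene BMF rose by 0.45 ± 0.09 and BOK by 0.58 ± 0.15, while BAX fell.

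Of 60 ribosomal protein genes measured, RPL21, RPL29 (-0.81 ± 0.24) and RPS7 (-0.78 ± 0.26) fell and RPS27 rose by 0.24 ± 0.06. RPS7 had 8.92, 8.94, 8.62, 10.16 and 8.62 in I at 3 µg/mL, against controls between 9.30 and 10.26 (median 9.84). Replicate 4 lay among the controls and the other 4 arrays below them all, and the change was -1.06 without replicate 4. RPL29 likewise reached -1.11, and 4 members fell without replicate 4. With the mean of probes 7 fell and 0 rose, and without the 9 arrays that lie apart 9 fell and 4 rose. These genes have many pseudogene copies that could share probe signal. In the proteasome, 4 of 32 fell and 1 rose. PSMA1, a subunit of the core, changed by -0.35 ± 0.09 with no overlap of the groups, PSMD12 by -0.39 ± 0.12, while a second PSMD12 probe rose by 0.13 (adjusted p = 0.0411). The cap subunit PSMD3 rose by 0.43 ± 0.09. Of 21 histone genes, H2AC6 (-0.68 ± 0.21) and H3C10 (-0.21 ± 0.06) fell, and H2AC11 rose by 0.13 ± 0.03 at a level near the array median. RNU1-3, a copy of the U1 spliceosomal RNA, rose by 0.31 ± 0.09, the 1 member of 17 small RNAs that passed.

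In signalling, ETV4, a transcription factor downstream of ERK, was the 1 of 17 ERK feedback genes that passed. It had 10.66, 10.72, 10.85, 10.54 and 10.68 in I at 3 µg/mL, against controls between 9.64 and 10.56 (median 9.91). Only control replicate 8 reached the lowest treated array, and ETV4 rose by 0.71 ± 0.14 (adjusted p = 0.000255). Of 18 immediate early genes, JUN (-0.33 ± 0.11) and FOS (-0.17 ± 0.05) fell and MAFF rose by 0.44 ± 0.14. FOS lay near the array median in both groups. In the inflammation list the adhesion molecule ICAM1 rose by 0.61 ± 0.14 and the cytokine IL32 changed by -0.59 ± 0.16.

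In cell structure, KRT23 changed by -0.62 ± 0.14 beside KRT18, while the linker proteins PLEC (0.29 ± 0.08) and JUP (0.47 ± 0.14) rose. Neither rise passed without replicate 4, and both falls did. The actin crosslinker ACTN4 (0.42 ± 0.13) and VASP (0.40 ± 0.13), which promotes filament growth, rose, and tropomyosin TPM1 changed by -0.32 ± 0.09. In the basement membrane list the protease inhibitor TIMP3 rose by 0.59 ± 0.11 (adjusted p = 0.000121), and fibronectin, FN1, changed by -0.26 ± 0.07. FN1 averaged 6.83 in I at 3 µg/mL and 7.09 in control, not far above the array median of 6.62. TIMP3 had 8.28, 8.13, 8.13, 8.33 and 7.68 in I at 3 µg/mL, against controls between 7.32 and 8.24 (median 7.41). Control replicate 8 was the highest control, at 8.24, and lay within the treated range.

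The dose question was answered by direct tests between arrays of the same powder. Between 3 and 30 µg/mL, 0 of 20046 genes passed with limma, while 2079 had an unadjusted p under 0.05 (10.4%). Over the 24 leading genes the difference of 3 minus 30 µg/mL ran from -0.68 to 0.82, with 95% intervals of ± 0.28 to ± 0.70. The interval left out 0 for 3 of them, RNA18SN5 (0.82), IGF2 (0.63) and KYNU (-0.68), and without replicate 4 these differences were 0.66, 0.54 and -0.33. Between 3 and 0.3 µg/mL, 2 of 20046 genes passed (0.00998%), 1 in each direction (0.00499% each), the long noncoding RNAs TUSC7 (0.17 ± 0.03, adjusted p = 0.0376) and C1RL-AS1 (-0.26 ± 0.05, adjusted p = 0.0114), while 858 had an unadjusted p under 0.05. Both transcripts lay near the array median. TUSC7 alone passed without replicate 4 (0.20, adjusted p = 0.00593). These intervals leave room for differences of that size, and a p over the threshold does not show that the doses act alike.

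KRT18 had a mean level of 6.94 ± 0.07 at 0.3 µg/mL (SD, n = 4), 6.95 ± 0.32 at 3 µg/mL (SD, n = 5) and 6.82 ± 0.04 at 30 µg/mL (SD, n = 5), against 8.58 ± 0.73 in control (SD, n = 8). All 3 means lie near the array median, where small differences between doses cannot be read. CHPF had 9.52 ± 0.35, 9.51 ± 0.31 and 9.12 ± 0.16 at 0.3, 3 and 30 µg/mL, against 8.39 ± 0.46 in control. RNA18SN5 had 12.96 ± 0.35, 12.52 ± 0.42 and 11.70 ± 0.42 at those doses, against 11.49 ± 0.54 in control. At 30 µg/mL its 5 arrays, between 11.24 and 12.32, lay within the control range of 10.94 to 12.64. Against the same 8 controls, 1117 genes passed at 0.3 µg/mL (5.57%), 803 higher (4.01%) and 314 lower (1.57%). At 3 µg/mL 1547 passed, and at 30 µg/mL 786 (3.92%), 525 higher (2.62%) and 261 lower (1.3%). Without the 9 arrays that lie apart, which include 1 of the 4 arrays at 0.3 µg/mL and none at 30 µg/mL, the counts were 954 at 0.3 µg/mL (4.76%), 1964 at 3 µg/mL and 2054 at 30 µg/mL (10.2%). The order of the doses by count is thus not the same in both settings. These counts share their controls, control replicate 8 included, and the counts themselves were not tested for a difference.

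Against the Degussa powder A at the same 3 µg/mL, 179 genes differed (0.893%), 98 higher in I (0.489%) and 81 lower (0.404%), and 57 did without replicate 4. Of the 179, 72 also passed between I and control, and 47 between A and control. Over the 24 leading genes the difference of I minus A ran from -1.18 to 1.03, the 95% interval left out 0 for 8, and 3 passed, RNA18SN5, PPP3R1 and DKK1, of which DKK1 alone did without replicate 4. AKAP12, a scaffold of protein kinase A, had 8.00, 7.77, 7.87, 8.50 and 7.90 in I at 3 µg/mL, and its 5 arrays of A at 3 µg/mL ran between 8.73 and 9.09 (median 8.92). The 2 powders did not overlap, and AKAP12 was lower in I by -0.89 ± 0.13 (adjusted p = 1.73e-05), and by -1.01 without replicate 4. Against control, AKAP12 in I did not pass (-0.20 ± 0.12, adjusted p = 0.348). DKK1 had 9.06, 8.83, 9.03, 7.98 and 8.98 in I, and between 9.72 and 10.13 in A (median 9.95). It was lower in I by -1.18 ± 0.24 (adjusted p = 0.00351, and 0.049 without replicate 4). CYP24A1, which breaks down vitamin D, was lower in I by -0.84 ± 0.18 (adjusted p = 0.00701, and 0.0523 without replicate 4). Its mean was 7.73 in I, 8.57 in A and 8.15 in control, and it did not pass between I and control.

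RNA18SN5 (1.03 ± 0.28), the membrane chemokine CX3CL1 (1.07 ± 0.26) and SNORC (1.06 ± 0.28) were higher in I than in A. Control means of CX3CL1 (9.68) and SNORC (10.85) lay between those of A (9.21 and 10.46) and I (10.28 and 11.52). Between I and control, CX3CL1 and SNORC did not pass. CX3CL1 had 9.86, 9.96, 10.01, 11.57 and 10.00 in I and between 9.04 and 9.41 in A (median 9.21), so the powders did not overlap and replicate 4 was the extreme array. None of these 3 passed without replicate 4, at adjusted p of 0.246 to 0.298, although their differences were still 0.75 to 0.86. KRT18 averaged 6.95 ± 0.32 in I and 7.56 ± 0.08 in A, a difference of -0.61 ± 0.28 that did not pass (adjusted p = 0.298). Against control, A at 3 µg/mL had 880 passing genes (4.39%), 615 higher (3.07%) and 265 lower (1.32%), from the same 8 controls as I. NUP210 averaged 8.71 ± 0.13 in I and 8.58 ± 0.12 in A, with a 95% interval of -0.15 to 0.41 for the difference.

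Against the Mknano powder H at 3 µg/mL, 0 genes differed with limma, and 1429 had an unadjusted p under 0.05 (7.13%). Over the 24 leading genes the difference of I minus H ran from -0.56 to 0.44, with intervals of ± 0.28 to ± 0.70. The intervals of KPNA2, MAD2L1 and RBM4 left out 0, and in all 3 replicate 1 of H was the highest array of H. Without that array, 0 genes passed with limma and 1114 had an unadjusted p under 0.05. The 24 differences then ran from -0.47 to 0.29, and KPNA2 alone kept an interval without 0 (-0.44). The 24 genes were chosen for their change in I, which bears on the sign of these differences. KRT18 had 8.68 in replicate 1 of H and 6.81 to 7.14 in its other 4 arrays. Against the shared controls, H at 3 µg/mL had 274 passing genes (1.37%), 205 higher (1.02%) and 69 lower (0.344%), and 603 (3.01%) without its replicate 1. The powders differ by vendor in the labels, and which physical property sets them apart is not given there.

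**Figure D4:**
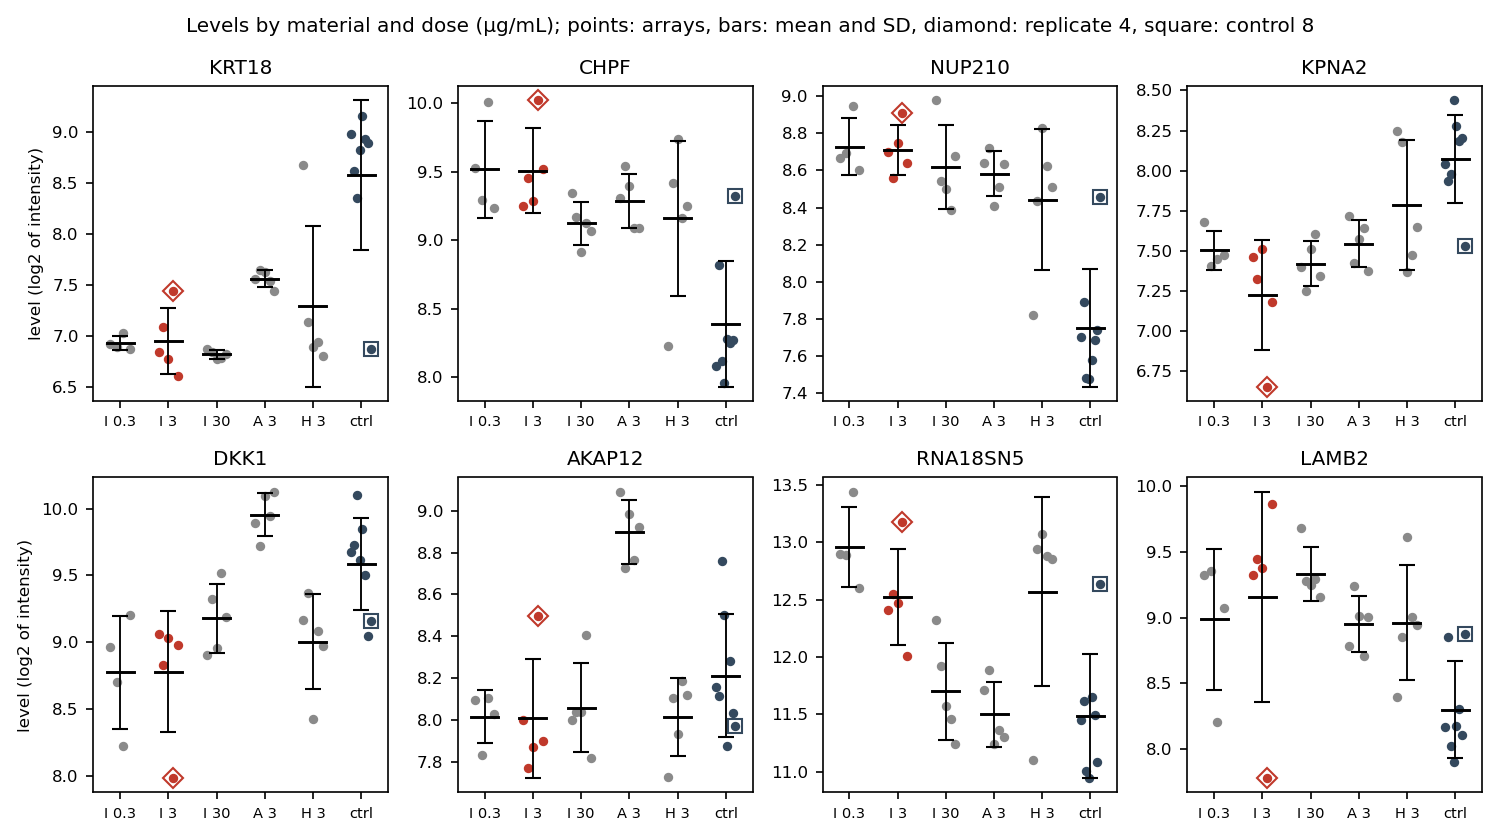
Levels (log2 of intensity, y axis) of 8 genes in Acros powder I at 0.3, 3 and 30 µg/mL, Degussa powder A and Mknano powder H at 3 µg/mL, and control (ctrl). Points are arrays, bars the mean and SD, the diamond replicate 4 and the square control replicate 8; DKK1 and AKAP12 are higher in A than in I at 3 µg/mL, and KRT18 is near 7 at all 3 doses of I, against 8.58 in control.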

How the data were processed

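Total RNA from each HepG2 flask was hybridised to its own Illumina HT-12 v4 array. The authors deposited linear intensity values per probe. Their tools, per the series text, were beadarray 2.4.1 and R 2.14.0. The normalization step is not stated in the sources at hand. All 120 arrays hold close to 1 common distribution, with a median of 98.4 and values from 52.5 to 18529, so no further normalization was applied. The log2 of each deposited intensity was taken.

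Of 48107 probes, 30113 carry 1 gene symbol in the platform annotation, 8 carry several and 17986 none. A gene was read from its brightest probe, which gave 20046 genes, 6691 of them with more than 1 probe. Groups were taken from titles and labels; 119 arrays in 25 groups entered 1 limma 3.58.1 fit (R 4.3.3), and 1 array of another material with conflicting dose labels was left out. Moderated tests with Benjamini-Hochberg adjustment over all genes used a threshold of 0.05. Replicates are called biological replicates in the series text. The p-values and SE rest on the spread between flasks within groups, pooled over all 25 groups. That includes the 9 arrays that lie apart, so they do not measure the spread of the treated and control flasks alone. The fit was tested on simulated data: of 100 genes changed by 0.5 it called 93, and of 100 changed by 1 it called 99, with 7 false calls (I at 3 µg/mL against control, 20046 genes). The simulated noise was normal and independent between genes and arrays, with no array that stands apart. Changed genes were drawn from all genes, dim ones included. The simulation thus tests the code, and its rates need not hold for the real arrays. Tables and figures used Python 3.11.15, pandas 2.3.3, numpy 2.4.6 and matplotlib 3.10.9.

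The genes named are the 12 largest rises and falls with all 5 treated arrays on 1 side of the control mean, the 3 genes whose change shrank most and the 3 whose change grew most without replicate 4, up to 4 passing members of each gene list, the 3 largest differences each way between powders or doses, and 10 fixed genes. KRT8, ATG4B, BECN1 and marker genes were named after their values were seen. The arrays compared, gene lists and rules were chosen with earlier results of these data known. Leaving out replicate 1 of H, and the counts at other doses without the 9 arrays, were added after seeing the data. Alternatives covered arrays left out, array weights, other normalizations, probe summaries, filters, blocks and a fit of 2 groups alone.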

Additional observations from a re-analysis of the deposited data

Results flagged for a closer look

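For 44 genes the 5 arrays of I at 3 µg/mL and the 8 controls were searched for an array far from the rest of its group with Dixon's ratio. In 88 groups 22 such arrays were found, where chance gives about 1 in 20 groups if groups are independent. That rate does not hold here, since all 88 groups use the same 13 arrays and 6 of the genes were named for how replicate 4 moves them. Of the 12 in I at 3 µg/mL, 10 were replicate 4, and of the 10 among controls, 9 were control replicate 8.

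Replicate 4 was the far array at 10.87 for ATG9A, 10.52 for DUSP9, 9.85 for PRRC2A, 9.92 for ZHX2 and 11.57 for CX3CL1, where it was highest. It was lowest at 7.82 for KYNU, 7.98 for DKK1, 6.71 for POLR2J3, 7.78 for LAMB2 and 7.30 for CYP24A1. Replicate 5 was lowest at 9.71 for LYZ and 8.11 for RBM4. Without replicate 5, LYZ changed by -0.64 and no longer passed (adjusted p = 0.114).

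Control replicate 8 was the highest control at 9.92 for UBR4, 12.64 for RNA18SN5, 9.46 for EPHB4, 9.05 for PRRC2A, 8.46 for NUP210 and 10.55 for SRC. It was the lowest control at 8.98 for RPL21P28, 6.88 for KRT18 and 11.08 for RPL21. In all 9 it lay toward the arrays of I at 3 µg/mL. All 24 leading genes passed without it. Control replicate 5 was highest for MKI67 at 6.75.

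Direct tests between powders or doses with limma gave further differences. Against I at 0.3 µg/mL these were TUSC7 (0.17) and C1RL-AS1 (-0.26). Against A at 3 µg/mL they were RNA18SN5 (1.03), CX3CL1 (1.07), SNORC (1.06), DKK1 (-1.18), AKAP12 (-0.89) and CYP24A1 (-0.84). Of these 8, TUSC7, DKK1 and AKAP12 passed without replicate 4. The part of replicate 4 and of control replicate 8 in these results was not tested beyond leaving them out.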

How the results depend on the processing

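Against control, the count of 1547 genes became 809 without replicate 4, 511 in a fit of the 2 groups alone and 0 when a change beyond 1.5-fold was asked for. It ran from 809 to 1797 when 1 array of either group was left out, and from 1502 to 2066 genes under array weights, the mean of probes, filters, normalizations, priors and blocks; tested one by one, 2122 of 30113 probes passed. Without replicate 4 and control replicate 8 together, a setting chosen after seeing the data, it was 1159. Replicate numbers did not pair the arrays of I at 3 µg/mL and control, since same-numbered arrays correlated at -0.345 to 0.304 and 1 of 5 matched its own number best; with a replicate block the counts were 1560 against control, 0 against I at 30 µg/mL, 1 against I at 0.3 µg/mL, 192 against A at 3 µg/mL and 0 against H at 3 µg/mL. Against I at 30 µg/mL, array weights gave 8 genes, median centring 1, and leaving out 1 array 0 to 1. Against I at 0.3 µg/mL the 2 genes became 1 without the 9 arrays that lie apart, with array weights, with the mean of probes, without dim genes and with blocks of 12 arrays in order of deposit, 0 in the fit of 2 groups and past 1.5-fold, and 0 to 2 when 1 array was left out. Against A at 3 µg/mL the 179 genes became 504 without the 9 arrays, 589 with array weights, 55 in the fit of 2 groups, 315 without dim genes, 434 with the deposit block and 0 past 1.5-fold. That count ran from 50 to 333 when 1 array was left out: 333, 104 and 57 without replicates 1, 2 and 4 of I, and 66, 99, 50 and 74 without replicates 1, 3, 4 and 5 of A. Against H at 3 µg/mL the deposit block gave 8. Of 134 named genes, 79 kept their direction and their side of the threshold without replicate 4, 50 lost the threshold and 5 changed sign. Signs changed in genes that had not passed, and in SLC3A2 with the mean of probes (-0.18). Without replicate 4, also without the 9 arrays, ALB was at 0.0067, MT2A at -0.158, HSPA1A at 0.0677, DDIT3 at 0.0071 and CDKN1A at -0.0003; without control replicate 8 as well they were at 0.0074, -0.178, 0.0692, 0.0173 and -0.0361. Array weights put MT2A at -0.0778, HSPA1A at 0.0736 and CDKN1A at -0.0154, and the replicate block put them at -0.0601, 0.0953 and -0.0088. Leaving out 1 array gave -0.0743 to 0.0067 for ALB, -0.158 to 0.1545 for MT2A, -0.0858 to 0.0575 for HMOX1, -0.1873 to 0.0677 for HSPA1A, -0.1524 to 0.0071 for DDIT3, -0.0003 to 0.218 for CDKN1A and -0.0294 to 0.0225 for MKI67. The cause was not tested. Genes near the array median have little signal over background, which limits their changes, and 31 named genes have a probe of the opposite sign.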
